A study of Homo sapiens with 30 samples.

Results

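The genes described here are 5 targets and feedback genes of WNT signalling (AXIN2, NKD1, RNF43, LGR5 and SP5) and the 4 genes of the TCF/LEF family (LEF1, TCF7, TCF7L1 and TCF7L2). These 9 genes, of 20037 protein-coding genes on chromosomes 1 to 22, X and Y, were chosen by name, with earlier results of these data known. Each was followed through its window, the gene body with 50 kb on each side (GRCh38), in 10 lists of open chromatin peaks. The 9 windows held 487 of 493444 regions, where a region is the union of peaks that overlapped by at least 1 bp in any of the lists.

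The libraries were OmniATAC-seq, in which the Tn5 transposase cuts accessible DNA, from wild-type H1 cells, a human embryonic stem cell line. The groups were pluripotent cells on day 0 (hPSC), definitive ectoderm on day 1 (DE), anterior (aNE) and posterior (pNE) neural ectoderm on day 2, and 6 populations on day 4, made by moving aNE or pNE into telencephalon (T), midbrain (M) or hindbrain (H) medium. Each group had 3 replicates in the labels but a single deposited peak list without scores. There is therefore no replicate error and no test for any value given here, and every difference is one between lists. On chromosomes 1 to 22, X and Y the lists held from 167792 peaks (aNE) to 313095 (pNE_H) and covered from 75.5 Mb to 129 Mb. Read depth is unknown.

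Every derived population had met a WNT inhibitor. The DE medium held 1 µM C59, which blocks WNT secretion, with A8301, Trametinib and LDN193189. The aNE medium kept C59 at 1 µM beside A8301, LDN193189 and Thiazovivin. In the pNE medium 1 µM XAV939, a tankyrase inhibitor that stabilises AXIN proteins, took the place of C59, and the retinoic acid receptor agonist TTNPB (50 nM) and FGF2 (20 ng/mL) were added. The labels also describe a forebrain medium that began on day 3 with XAV939, LDN193189 and FGF2. The make-up of the midbrain and hindbrain media is not given in the sources used here. Cells kept beyond day 2 were plated at 75000 per square cm in the anterior and 150000 in the posterior protocol, so origin and plating density cannot be told apart.

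In canonical WNT signalling, a WNT ligand bound to Frizzled and LRP receptors stops the AXIN complex from destroying beta-catenin, which then enters the nucleus and joins TCF/LEF proteins on DNA. Without beta-catenin these proteins recruit Groucho/TLE corepressors, and TCF7L1 is best known as a repressor. Several of the genes that the pathway turns on dampen or sharpen it in turn. In the early neural plate, low WNT activity goes with forebrain identity and higher activity with more caudal identity.

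The SP5 promoter is shown first, because SP5 gave the widest differences between the day 4 lists and because its promoter carries TCF/LEF cores. The core was searched as CTTTGAT or CTTTGAA on either strand, in the 250 bases before each start site listed by RefSeq (GRCh38.p14). No core overlapped another in SP5. Capitals mark the cores. The promoters of TCF7L1 and TCF7, for which a peak also lay over the start site in every list, are given for comparison and have no core. SP5 lies at chr2:170715087-170715336, TCF7L1 at chr2:85133142-85133391 and TCF7 at chr5:134115363-134115612, each on the plus strand.
SP5: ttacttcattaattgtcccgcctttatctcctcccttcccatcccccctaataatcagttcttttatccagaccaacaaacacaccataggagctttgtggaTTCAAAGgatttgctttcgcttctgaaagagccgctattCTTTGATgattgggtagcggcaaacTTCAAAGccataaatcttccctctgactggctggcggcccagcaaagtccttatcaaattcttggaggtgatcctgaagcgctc
TCF7L1: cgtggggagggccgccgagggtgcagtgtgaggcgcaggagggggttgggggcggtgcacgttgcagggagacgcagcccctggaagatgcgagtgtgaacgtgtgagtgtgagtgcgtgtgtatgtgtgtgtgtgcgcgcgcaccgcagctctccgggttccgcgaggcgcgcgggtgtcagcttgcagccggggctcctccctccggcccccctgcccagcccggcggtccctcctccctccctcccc
TCF7: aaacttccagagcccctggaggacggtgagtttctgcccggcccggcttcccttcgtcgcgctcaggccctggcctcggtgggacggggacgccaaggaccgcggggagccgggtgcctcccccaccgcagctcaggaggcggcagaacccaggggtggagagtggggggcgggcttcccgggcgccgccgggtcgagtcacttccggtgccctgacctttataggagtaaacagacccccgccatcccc

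SP5 had 3 cores, which begin 148, 109 and 84 bases before the start site. At least 1 core was present in 4.9% of 22199 protein-coding promoters, and 3 cores were present in 2 of them, SP5 and CUBN, the latter named after its value was seen. The table holds 10 promoters for 6 of the 9 genes (SP5, LEF1, TCF7, TCF7L1, TCF7L2 and RNF43), and the other 9 of these promoters had 0 cores. These letter matches are descriptions of sequence, not sites of binding.

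All 3 SP5 cores lay inside the peak over the start site in 8 lists, and 2 of the 3 did so in hPSC and DE, where that peak began further in. SP5, a zinc finger factor induced by WNT, had 1 unbroken peak of 2059 bp here in aNE_H (chr2:170714516-170716574) and 1 of 1920 bp in pNE_M. The peak over the start site was 1837 bp wide in aNE_M and 1411 bp in pNE, and from 412 bp in pNE_T to 867 bp in pNE_H in the other 6 lists. In aNE_T and in pNE_T, where it was narrowest, the region held 4 separate peaks. The bases inside peaks over the whole region differed less, from 1314 bp in DE to 2059 bp in aNE_H.

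A promoter was counted here as the 300 bp listed around a start site, from 1 bp of overlap with a peak. Of the 10 listed promoters of these genes, 8 had a peak in all 10 lists, against 67.8% of protein-coding promoters. The exceptions were the second start of TCF7, with a peak in DE and aNE_T alone, and the third start of TCF7L2, with a peak in 6 lists. An overlap need not reach the start site itself. At LEF1 only 33 to 80 of the 300 bp lay inside a peak, and no list had a peak over the listed start site, which lies inside the gene. Within 1 kb of the higher end of LEF1, a gene on the minus strand, every list had a peak (837 to 1742 bp). At the first start of RNF43 only the aNE peak reached the site. For AXIN2, NKD1 and LGR5 the table gives no start, and both gene ends were examined within 1 kb. AXIN2 had a peak at its higher end in every list (1652 to 2327 bp), and NKD1 (1196 to 1678 bp) and LGR5 (1652 to 2360 bp) at their lower ends. The first TCF7 start peak varied little, between 1807 and 1929 bp wide, while that of TCF7L1 ran from 709 bp in DE to 1989 bp in aNE_T.

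**Figure D1:**
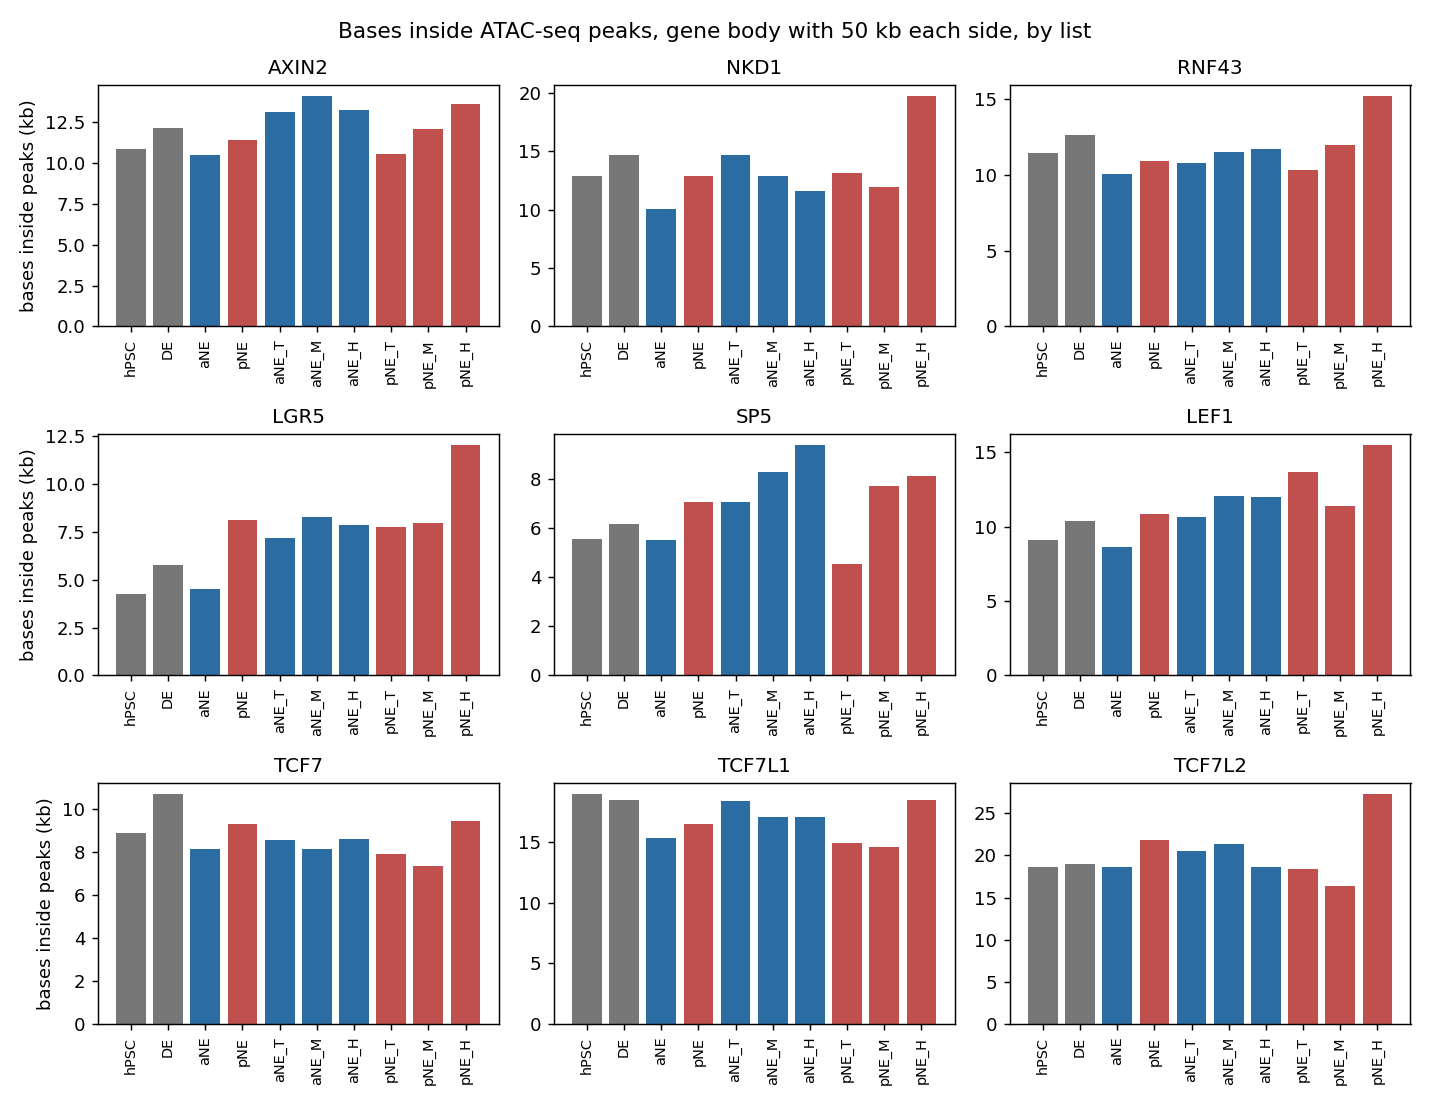
Bases inside peaks (kb, vertical axis) in the window of each of the 9 genes, 1 bar per peak list; grey bars are hPSC and DE, blue bars aNE and its day 4 descendants, red bars pNE and its descendants. LGR5 is lowest in hPSC at 4246 bp and highest in pNE_H at 12038 bp, and SP5 is lowest in pNE_T at 4541 bp and highest in aNE_H at 9356 bp.

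Over the 9 windows together the hPSC list had 255 peaks, the DE list 273, the aNE list 195 and the pNE list 233. On day 4 there were 233, 261 and 251 in aNE_T, aNE_M and aNE_H, and 245, 249 and 311 in pNE_T, pNE_M and pNE_H. The shortest list, aNE, had the fewest and the longest, pNE_H, the most. Of every 1000 peaks in a list these windows held between 0.993 (pNE_H) and 1.23 (aNE_H). Levels are therefore also given per Mb of all peak bases in a list. On that scale the 9 windows held 1185 bp per Mb in the hPSC list, 1169 in DE, 1210 in aNE and 1263 in pNE. The day 4 values were 1274, 1245 and 1309 in aNE_T, aNE_M and aNE_H and 1131, 1203 and 1077 in pNE_T, pNE_M and pNE_H. All 3 anterior-derived lists thus lay above all 3 posterior-derived ones on this scale, whereas in bases as deposited pNE_H was highest with 139166 bp. The scale leans this way for genes at large: 27.7% of all genes had more bases per Mb in every anterior-derived list than in any posterior-derived list, and 5.73% the reverse.

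AXIN2 encodes a scaffold of the beta-catenin destruction complex and is a standard readout of WNT activity. Its window (chr17:65478563-65611648) holds no other gene of the table. Peaks covered 10855 bp in hPSC, 12123 bp in DE, 10484 bp in aNE and 11418 bp in pNE. In the day 4 lists peaks covered 13122, 14062 and 13249 bp after aNE (T, M, H) and 10570, 12094 and 13596 bp after pNE. Per Mb the anterior-derived lists, at 151, 154 and 158 bp, did not overlap the posterior-derived ones, at 118, 144 and 105 bp, a pattern shared by 27.7% of all genes. As deposited the lists of both origins overlapped. Of 37 regions 10 were open in every list.

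Individual AXIN2 regions went different ways, the first 2 of them picked after their values were seen. A flank region at chr17:65515516-65516996 held 1394 bp in aNE_H but 218 bp in pNE_T. The region at chr17:65530134-65532144, inside the gene, ran the other way, with 615 bp in aNE_H against 1993 bp in aNE_T and 1659 bp in pNE_T. Open in all 3 posterior-derived lists and in no other was chr17:65492667-65493157, 35.4 kb from the gene, with widths of 386 (T), 219 (M) and 471 bp (H). The widest region shared by both hindbrain lists and absent from both telencephalon lists, chr17:65576935-65577767, was also open in aNE_M and pNE_M, with 833 bp in pNE_M.

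**Figure D2:**
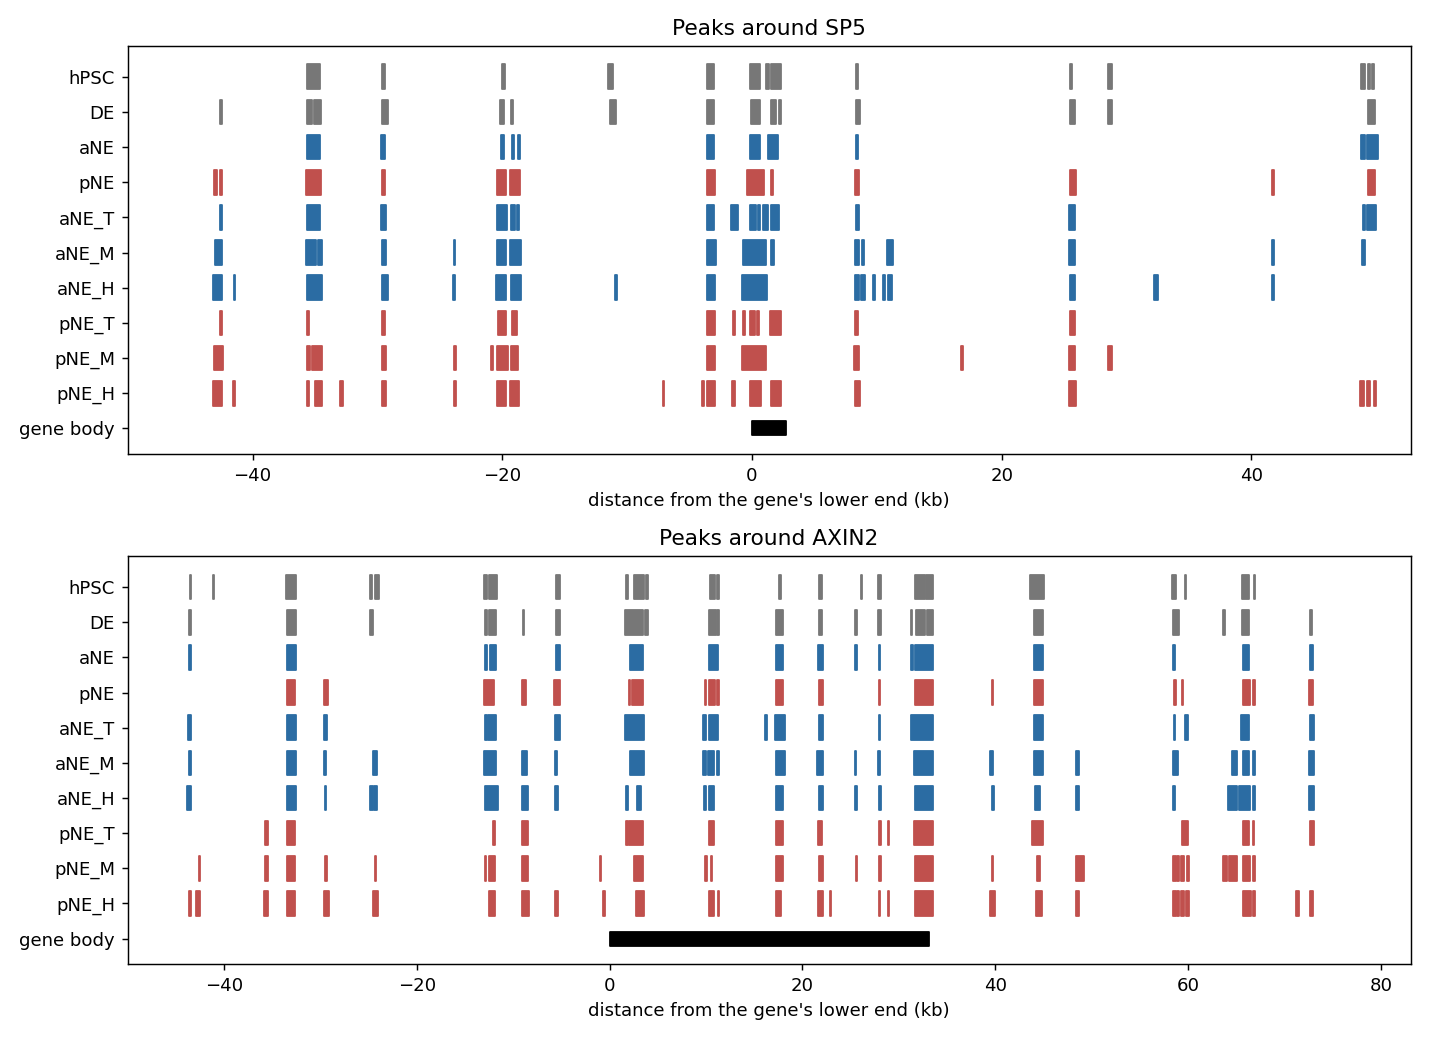
Peaks of each list (rows) around SP5 (upper panel) and AXIN2 (lower panel), against the distance from the lower end of the gene in kb; each coloured bar is 1 peak drawn to scale (grey hPSC and DE, blue aNE and descendants, red pNE and descendants) and the black bar is the gene body. The peak at SP5 is unbroken in aNE_H and pNE_M, and the AXIN2 peak at the higher gene end is present in all 10 lists.

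SP5 spans only 2742 bp (chr2:170715337-170718078), so 26 of its 27 regions lay in the flanks, among lncRNA genes such as LINC01124 and ERICH2-DT. Peaks covered 5531 bp in hPSC, 6138 bp in DE, 5507 bp in aNE and 7033 bp in pNE. After aNE they covered 7063, 8269 and 9356 bp in T, M and H medium, and after pNE 4541, 7710 and 8088 bp. In both origins the T list was the lowest of the 3 media and the H list the highest as deposited. Per Mb the anterior-derived lists kept this order at 81, 90.6 and 111 bp, while after pNE the M list was highest, at 50.8, 91.6 and 62.6 bp.

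A distal SP5 region at chr2:170672143-170672940 showed the media most plainly. After aNE it held 162 bp in T, 557 bp in M and 782 bp in H medium. After pNE it held 127 bp in T, 722 bp in M and 743 bp in H medium. Both T lists were lowest. This region had 0 bp in hPSC and aNE, 134 bp in DE and 423 bp in pNE. The neighbouring region chr2:170679628-170680906 had 955 to 1228 bp in 8 lists, against 225 bp in pNE_T and 668 bp in pNE_H. Downstream, chr2:170764609-170765470 held 862 bp in aNE, 575 bp in pNE and 707 bp in aNE_T and had no peak in aNE_M, aNE_H, pNE_T or pNE_M. It also held 285 bp in hPSC, 571 bp in DE and 354 bp in pNE_H. These 3 regions were picked after their values were seen.

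LGR5 encodes a receptor for R-spondins, which strengthen WNT signals. Peaks in its window (chr12:71389129-71636310, which also reaches into ZFC3H1) covered 4246 bp in hPSC, 5773 bp in DE and 4510 bp in aNE, against 8124 bp in pNE. The 3 media gave 7180, 8280 and 7869 bp after aNE and 7771, 7959 and 12038 bp after pNE. All 6 day 4 lists and pNE lay above hPSC, DE and aNE, also per Mb, where the latter 3 had 50.1 to 61.5 bp and the other lists 82.4 to 94.5 bp. This division was picked after the values were seen. The share of all genes with it was not counted, so it is not read as particular to LGR5. Of 45 regions only 6 were open in every list.

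The first LGR5 regions given here were picked after their values were seen, among those that differed most between pNE and aNE. They share the division of the window by that choice. The region inside LGR5 at chr12:71503793-71504862 differed most. It had no peak in hPSC, 112 bp in DE and 192 bp in aNE, against 952 bp in pNE and 386 to 1024 bp on day 4. Another, chr12:71447686-71448162, was open in pNE and in all 6 day 4 lists and in none of hPSC, DE and aNE. By origin, chr12:71460045-71461145 was open in the posterior-derived lists alone, with 654 bp in T, 550 bp in M and 1101 bp in H medium.

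**Figure D3:**
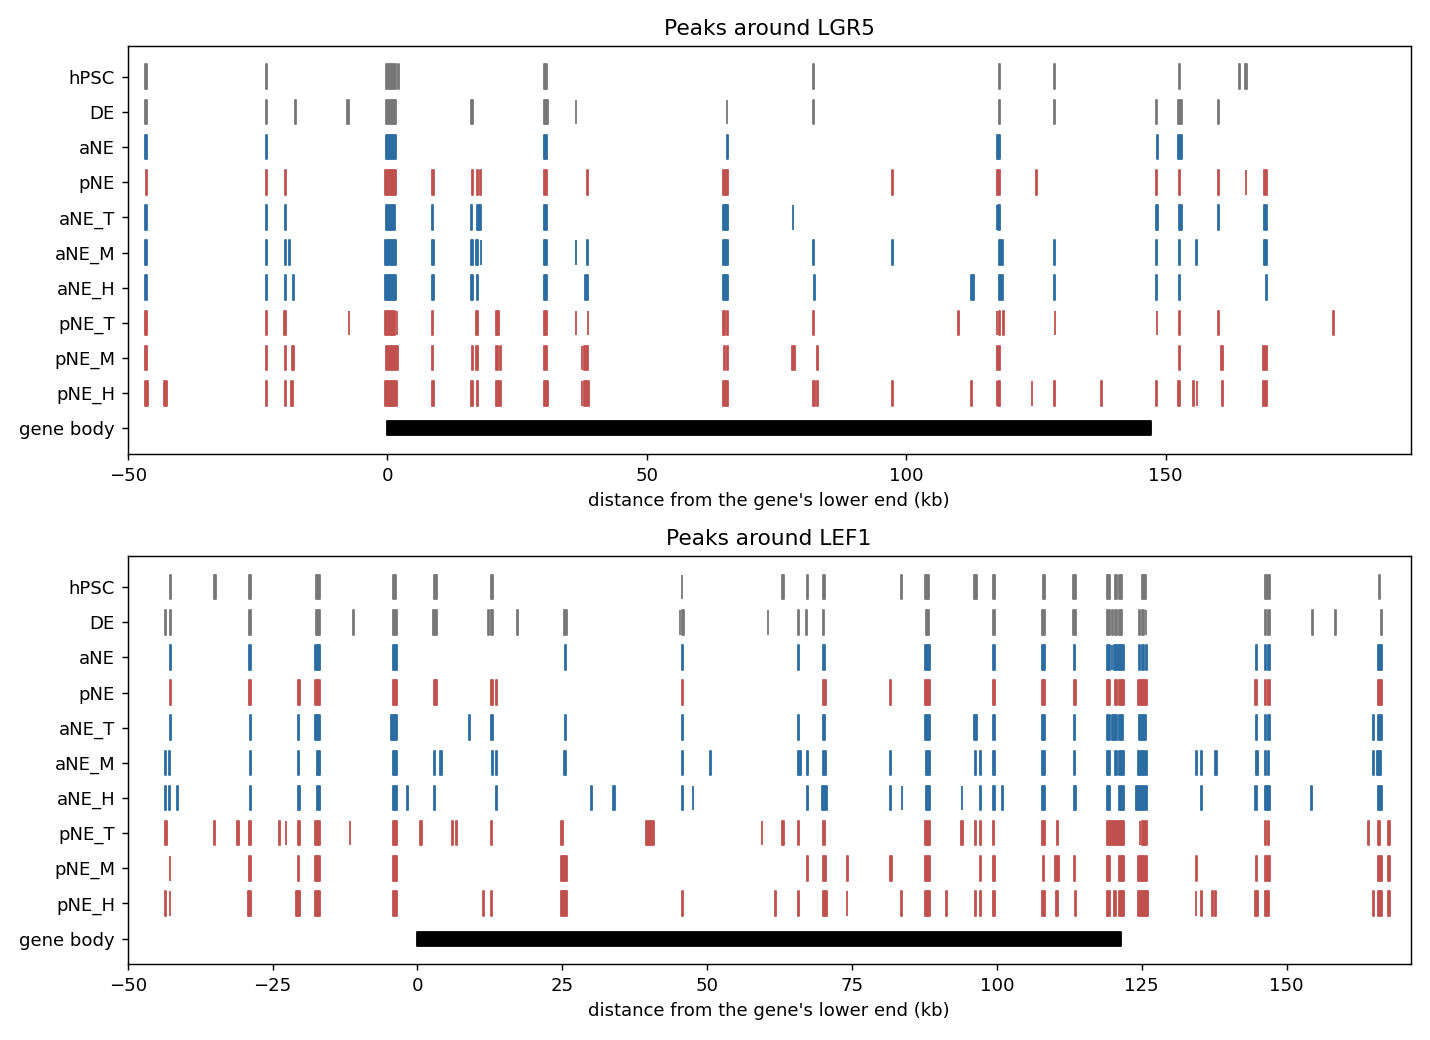
Peaks of each list (rows) around LGR5 (upper panel) and LEF1 (lower panel), against the distance from the lower end of the gene in kb; each coloured bar is 1 peak drawn to scale (grey hPSC and DE, blue aNE and descendants, red pNE and descendants) and the black bar is the gene body. The aNE list has 9 peaks around LGR5 and the pNE list 19, and at LEF1 the pNE_T list has the most, 38.

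NKD1, which binds Dishevelled and dampens the pathway, had from 10072 bp in aNE to 19669 bp in pNE_H, with a median of 12876 bp over the 10 lists. Its window reaches into SNX20 and NOD2. Of its 67 regions 12 were open in every list. The intragenic region chr16:50581369-50582185 was open in aNE_T (634 bp) and pNE_T (678 bp) and in neither H list, and it was also open in hPSC, DE, aNE and aNE_M. Another intragenic region, picked for its spread after the values were seen, chr16:50610375-50611612, held 1193 bp in hPSC and had no peak in pNE_M or pNE_H.

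RNF43 encodes a ubiquitin ligase that removes Frizzled receptors. Peaks covered from 10093 bp in aNE to 15190 bp in pNE_H, with a median of 11476 bp, and 13 of 45 regions were open throughout. Per Mb RNF43 was the steadiest of the 9 genes, the highest list having 1.23 times the lowest. As deposited that ratio was 1.51, and TCF7L1, AXIN2 and TCF7 varied less. Among regions picked the same way, chr17:58364013-58365988, ran from 508 bp in hPSC to 1920 bp in pNE_M. The window also takes in TSPOAP1, SUPT4H1 and HSF5, whose own regions cannot be told apart from those of RNF43.

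LEF1, both a TCF/LEF factor and a WNT target, had 9073 bp in hPSC, 10358 bp in DE, 8610 bp in aNE and 10860 bp in pNE. The day 4 lists had 10670, 12044 and 11965 bp after aNE and 13664, 11377 and 15480 bp after pNE. Per Mb hPSC was lowest at 107 bp and pNE_T highest at 153 bp. The window also reaches into HADH and LOC124900752, so not every peak in it need belong to LEF1. LEF1 had the largest share of regions seen in a single list, 31 of 72 or 43.1%, beside 30.8% over the 9 windows and 33.5% of all regions, and 11 of these 31 were in pNE_T. They include an intragenic peak of 1084 bp at chr4:108086938-108088021. A region beyond the higher gene end, chr4:108171893-108173566, held 702 to 747 bp in hPSC, DE and aNE, 1508 bp in pNE, and 926 to 1623 bp on day 4.

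In the window of TCF7, the family member named for T cells, peaks covered between 7332 bp (pNE_M) and 10675 bp (DE). Here 9 of 25 regions were open in all lists, the largest share among the 9 genes at 36%. VDAC1, SKP1 and PPP2CA lie partly in this window. TCF7L1, the factor best known as a repressor in pluripotent cells, had 18946 bp in hPSC, the most of any list, and 14570 bp in pNE_M, the least. Per Mb the highest value was again in hPSC (223 bp) and the lowest in pNE_H (143 bp), and 18 of 56 regions were open throughout. TGOLN2, RETSAT and ELMOD3 lie at least partly in its window.

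TCF7L2 has the longest window (chr10:112900247-113217678) and the most regions, 113, of which 19 were open in every list. Peaks covered 16350 bp in pNE_M and 27267 bp in pNE_H. Its widest region open in both H lists and neither T list, chr10:112991357-112992581, held 1225 bp in aNE_H, 1115 bp in pNE_H, 836 bp in pNE and 600 bp in aNE_M and had no peak elsewhere. In the flank, chr10:112918810-112919077 was open in all lists of days 0 to 2 and in all 3 anterior-derived lists but in no posterior-derived one.

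For comparisons between lists, a scaled fold was used: the ratio of the bases inside peaks in a window, divided by the same ratio for the whole lists. A gene was called at 1.5-fold or more higher, or at 0.667 or less, and genes with under 1000 bp in both lists were not tested. From hPSC to DE 0 of the 9 genes were called in either direction, against 1.47% of 19097 genes higher and 1.03% lower. Their median fold was 1.01, beside 0.942 over all genes. LGR5 came closest, at 1.23. From DE to aNE 0 were called as well, with 0.771% of all genes higher and 2.59% lower, and the medians were 1.03 and 1.05. TCF7L2 had the highest fold, 1.22, and NKD1 the lowest, 0.853.

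From DE to pNE, 1 of the 9 genes was called higher (2.39% of all genes) and 0 lower (3.79%). That gene was LGR5, at 1.53. SP5 and TCF7L2 followed at 1.25. Without scaling LGR5 stood at 1.41, and with flanks of 10 kb at 1.43, below the limit in both cases.

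Between the day 2 populations, pNE against aNE, LGR5 was again the only gene of the 9 past the limit, at 1.58 (1.95% of all genes higher) and at the 98.5 percentile of genes. With flanks of 10 kb the fold was 1.39. Both comparisons use the same pNE list. None of the 9 was called lower (1.15% of all genes). The other 8 folds lay between 0.942 (TCF7L1) and 1.12 (NKD1 and SP5), and the median of the 9 was 1.03 beside 0.922 for all genes. LGR5 had 11 regions open in pNE and not in aNE and 0 the other way. Its 3 largest regional differences summed to 1808 of the 3614 bp that separate the lists. Over all 9 windows 61 regions were open in pNE only (12.5%) and 24 in aNE only (4.93%), close to the shares of all regions, 12.7% and 5.54%.

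**Figure D4:**
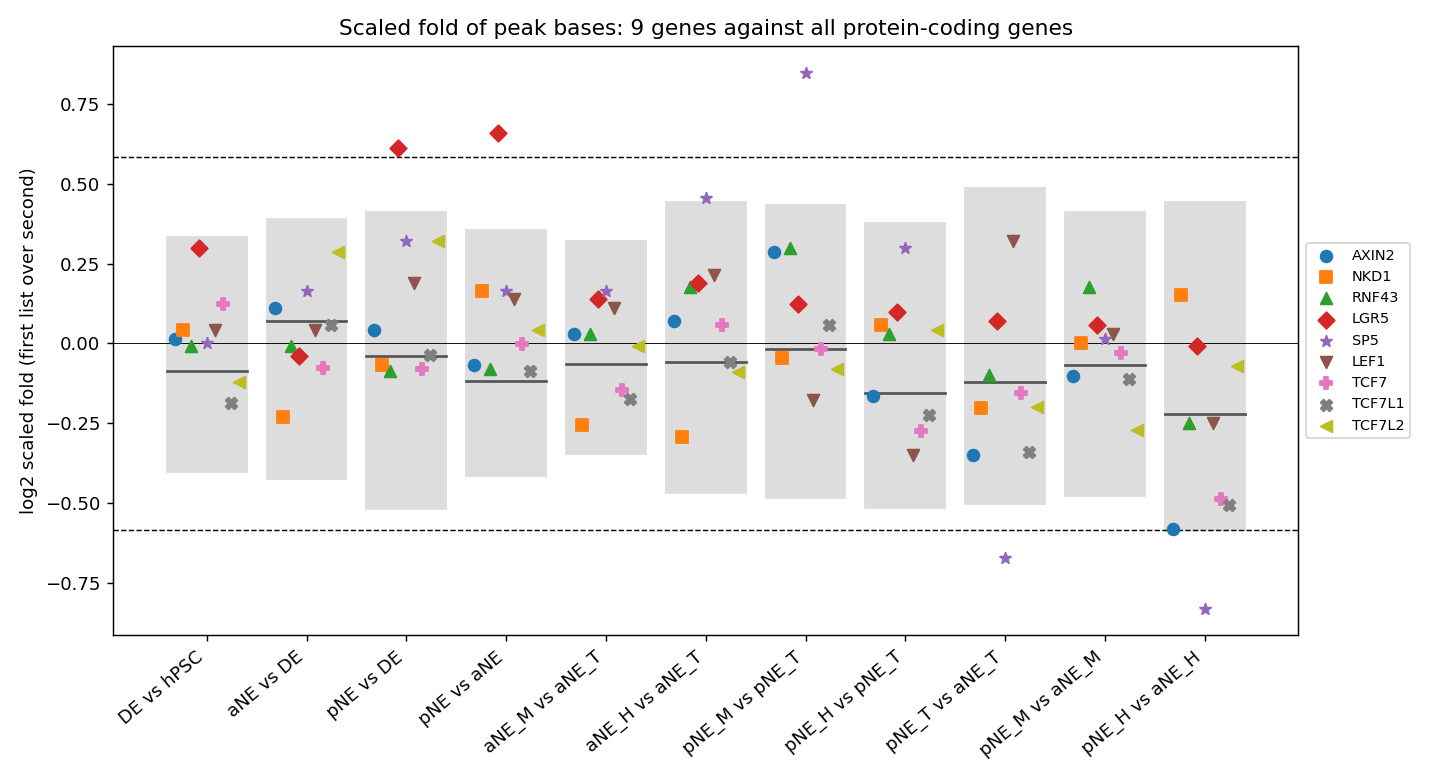
Scaled fold on a log2 axis (vertical) for 11 comparisons of lists (horizontal), 1 symbol per gene; grey boxes span the 5th to 95th percentile of all protein-coding genes tested, grey lines mark their median, and dashed lines mark the 1.5-fold limits. Only LGR5 (pNE against DE and aNE) and SP5 (pNE_M against pNE_T, pNE_T against aNE_T and pNE_H against aNE_H) lie outside the limits.

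The media were compared within each origin. After aNE, M against T medium called 0 of the 9 genes in either direction (1.42% of all genes higher, 1.11% lower), and so did H against T (2.84% higher, 2.73% lower). In the latter SP5 reached 1.37, the 95.2 percentile of genes, and NKD1 was lowest at 0.816. The median of the 9 genes was 1.02 for M and 1.05 for H, beside 0.956 and 0.96 over all genes.

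After pNE, M against T medium gave SP5 a fold of 1.8, the 99.2 percentile of genes and the only call among the 9 (2.39% of all genes higher). None was lower (3.26%). AXIN2 and RNF43 followed SP5 at 1.22 and 1.23. Flanks of 10 kb lowered the SP5 fold to 1.21 and counting peaks in place of bases to 1.06. By number of peaks AXIN2 was called in its place, with 28 peaks against 17. The 2.39% is for scaled bases, and no share of all genes is given here for numbers of peaks, so this call is not read as a result about AXIN2. H against T medium called 0 genes (2.09% of all genes higher, 2.79% lower), with SP5 highest at 1.23 and LEF1 lowest at 0.784. Both comparisons use the same pNE_T list. As deposited, without scaling to the long pNE_H list, NKD1, LGR5 and SP5 passed 1.5-fold in H against T, as did 22.2% of all genes.

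Origins were then compared within a medium. In T medium SP5 had a scaled fold of 0.627 for pNE_T against aNE_T, the 1.69 percentile, and was the 1 gene called lower (3.03% of all genes). None of the 9 was higher (3.62%), where LEF1 had the highest fold at 1.25. With flanks of 10 kb SP5 stood at 0.866 and by number of peaks at 0.747. This SP5 call and the one for pNE_M against pNE_T share the pNE_T list, the lowest for SP5 at 4541 bp, so they are not separate results. In M medium 0 genes were called (2.42% of all genes higher, 2.79% lower), and the folds ran from 0.828 for TCF7L2 to 1.13 for RNF43.

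In H medium SP5 was at 0.562 for pNE_H against aNE_H, the 0.721 percentile and the only call among the 9 genes, lower like 5.05% of all genes. AXIN2 lay just inside the limit at 0.668. None was called higher (3.03%). The median of the 9 genes, 0.841, was near the 0.858 of all genes. The pNE_H list holds 1.54 times the peak bases of aNE_H, and as deposited the other 8 genes had ratios of 1.03 (AXIN2) to 1.7 (NKD1). As deposited SP5 had 8088 against 9356 bp, a ratio of 0.864, and by number of peaks the scaled fold was 0.724. With flanks of 10 kb the fold was 0.513.

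Across the 6 day 4 lists, AXIN2, TCF7, TCF7L1 and TCF7L2 had more bases per Mb in every anterior-derived list than in any posterior-derived list. These 4 of 9 genes stand beside 27.7% of all genes with that pattern. The reverse pattern was found for 0 of the 9 and for 5.73% of all genes. As deposited 0 of the 9 genes had the first pattern. By number of peaks SP5 and TCF7 had it, and without the pNE_H list the same 4 genes had it as with all 6 lists. The 27.7% holds only for bases per Mb over all 6 lists. No share of all genes is given here for the other settings. For TCF7L1 the values per Mb were 211, 187 and 203 bp after aNE and 167, 173 and 143 bp after pNE. Origin goes with plating density and with an unlabelled feature of the lists, the narrowest peak, at 122 to 126 bp after aNE and 109 to 115 bp after pNE, and their part in the result was not tested.

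By medium, 23 of the 487 regions (4.72%) were open in both H lists and neither T list, and 5 (1.03%) the other way, beside 4.55% and 1.43% of all regions. TCF7L2 had 5 of the 23, RNF43 had 4, and AXIN2 and LGR5 had 3 each. By origin, 9 regions (1.85%) were open in all posterior-derived and no anterior-derived lists and 2 (0.411%) the reverse, beside 2.33% and 0.633% of all regions. Regions open in all 10 lists made up 21.8% of the 487, against 16.5% of all regions. A region is called open here from 1 bp of peak. Where peaks had to cover 50% of the region, 39 of the 487 (8.01%) were open in all lists, beside 6.72% of all regions. In these bulk samples, fewer cells with an open region and less opening in each cell cannot be told apart.

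The rest of the pathway was followed through 39 other genes: Frizzled and LRP receptors, LGR4, LGR6 and ZNRF3, the destruction complex, beta-catenin and its coactivators, TLE corepressors, and other targets such as NKD2, NOTUM and CCND1. Between pNE and aNE 0 of the 39 were called in either direction, and their median scaled fold was 0.926, beside 0.922 over all genes. The same count of 0 held for pNE_H against aNE_H, with a median of 0.877 beside 0.858. From hPSC to DE 1 was higher (FZD1, or 2.56% of the list beside 1.47% of all genes) and 0 lower. From DE to pNE 2 were higher (FZD4 and FZD6, or 5.13% beside 2.39%) and 0 lower. In T medium 2 of 39 were lower in pNE_T than in aNE_T, the receptor genes FZD5 and FZD8 (5.13% beside 3.03%), and 0 higher. In M medium FZD5 was lower (2.56% beside 2.79%) and TNKS, the gene of a tankyrase, higher in pNE_M (2.56% beside 2.42%). Counts of 1 or 2 genes are near these shares of all genes. From DE to aNE, and between media within either origin, 0 were called. These few genes are named after their values were seen.

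Genes with the most similar pattern were sought by Pearson's r of log2 bases per Mb over the 10 lists, among 18532 genes. For AXIN2 they were GTSF1 (0.952), TUBA1A (0.944) and SKI (0.936). For LEF1 they were CXorf38 (0.976), NELL2 (0.949) and GPR158 (0.948), and for SP5 they were TSPYL5 (0.941), CETN1 (0.929) and VBP1 (0.927). All these values share the 10 lists and their lengths, and 19 genes reached 0.9 with AXIN2, 9 with LEF1 and 7 with SP5.

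The labels were checked on promoters of 32 marker genes, of which 22 have a promoter in the table. Of 2 pluripotency genes with a promoter in the table, NANOG had a peak there in hPSC, DE, aNE, pNE and aNE_T and in none of the other day 4 lists, while DPPA4 had one in all 10 lists. Of 3 anterior genes, OTX2 lacked a promoter peak in pNE_T and pNE_H, while LHX2 and FEZF1 had one in every list, the posterior-derived ones included. Of 2 posterior genes, HOXA2 had one in pNE and the 3 posterior-derived lists alone, whereas HOXB1 had one in hPSC, DE and aNE too and lacked it in the 3 anterior-derived lists. The 4 neural ectoderm genes were open in all lists, and so were the mesoderm genes TBXT, MIXL1 and TBX6, the endoderm gene GATA6 and the neural crest gene FOXD3. Of 3 surface ectoderm genes, TFAP2A and GATA3 had a promoter peak in all 10 lists and TP63 in pNE_M alone. Of the other neural crest genes, PAX3 had one in every list but pNE_T, and TFAP2B had one in none. The mesoderm gene MSGN1 lacked one in hPSC alone. Most of these markers thus do not tell the lists apart at their promoters. An open promoter is not a measure of expression.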

How the data were processed

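Per the file contents, the authors deposited 10 peak lists, 1 for each group of 3 replicates, with sequence name, start and end and no score. Per the submitters' processing notes, Bowtie2, MACS2, bedtools and the build hg38 were named among others, without role, version or threshold. How replicates were combined is not given in the sources used here. List length differed, so values were also scaled to the peak bases of each list.

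Lists were matched to groups by the population name, and peaks outside chromosomes 1 to 22, X and Y were left out. Gene positions came from RefSeq (GRCh38.p14), and all 9 genes matched by symbol. Bases inside peaks and peaks per window were counted for 20037 protein-coding genes. The members and lists were chosen with earlier results of these data known. Named genes are all 9 members, other pathway genes past 1.5-fold in pNE against aNE or pNE_H against aNE_H (0 passed, and the pathway genes named were chosen after their values were seen), and the 3 most similar patterns to AXIN2, LEF1 and SP5. Named regions are those at start sites and the widest of each origin or medium pattern. Other regions were picked after their values were seen. Counting was tested on simulated lists of 300 windows, with a largest error of 0. Python 3.11.15, numpy 2.4.6, pandas 2.3.3 and matplotlib 3.10.9 were used.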

Additional observations from a re-analysis of the deposited data

Results flagged for a closer look

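For 5 genes the hindbrain medium stood on opposite sides of the telencephalon medium in the 2 origins, by the scaled fold of 1 list against 1 list. These 5 of 9 genes (55.6%) stand beside 34.9% of all genes tested, and for the midbrain medium 2 of 9 (22.2%) beside 42.7%. This difference between origins was not tested, since each group has a single list. LEF1 had 1.16 after aNE and 0.784 after pNE, a ratio of 0.674. TCF7 had 1.04 and 0.826 (ratio 0.793), AXIN2 1.05 and 0.891 (0.85), NKD1 0.816 and 1.04 (1.28) and TCF7L2 0.94 and 1.03 (1.09). For the midbrain medium, LEF1 had 1.08 and 0.885 (0.82) and TCF7L1 0.886 and 1.04 (1.17). For H against T medium after pNE the median over all genes was 0.897, so sides taken against 1 are not sides of the typical gene: AXIN2, at 0.891, was at the 48.3 percentile. As deposited, without scaling, the LEF1 folds in H medium were both above 1 (1.12 and 1.13), as were those of AXIN2 (1.01 and 1.29). TCF7 too lost the opposite sides, with 8598 bp in aNE_H against 8561 bp in aNE_T and a fold of 1.19 after pNE. For TCF7L1 in M medium both folds were below 1 (0.927 and 0.977). Without scaling the opposite sides were kept by NKD1 (0.787 and 1.5), TCF7L2 (0.906 and 1.48) and LEF1 in M medium (1.13 and 0.833).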

How the results depend on the processing

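No paired analysis was possible because each group has 1 list with no value per replicate, and for the same reason no replicate could be left out. The 9 genes were recounted under 5 alternatives. The share of all genes called also moved with the setting: from hPSC to DE 1.47% were higher as scaled and 2.87% as deposited. Such shares are not given beside each count below, so these counts are not read as results about the 9 genes. As deposited, without scaling, the number past 1.5-fold became 0 for pNE against DE, 3 for pNE_H against pNE_T and 2 for pNE_H against aNE_H (NKD1 and LGR5 in place of SP5). With flanks of 10 kb it became 0 for pNE against DE, pNE against aNE, pNE_M against pNE_T and pNE_T against aNE_T. With the widest 50% of each list it became 2 for pNE_M against pNE_T (RNF43 and SP5). By number of peaks it became 0 for pNE_T against aNE_T and for pNE_H against aNE_H. With the widest 167792 peaks of each list no count of called genes moved. For pNE_M against pNE_T by number of peaks the count stayed at 1 but the gene was AXIN2, with SP5 at 1.06. No called fold changed its direction under these alternatives. Among folds that were not called, those of pNE_H against aNE_H below 1 for 7 genes stood above 1 as deposited (for example RNF43, 0.841 and 1.29). Regions open in all 10 lists, 106 as counted, numbered 39 where peaks had to cover 50% of a region, and to 70 of 333 with flanks of 10 kb. For day 4 lists that do not overlap by origin, alternatives chosen after seeing the data gave 0 of the 9 genes as deposited and 2 by number of peaks. No share of all genes is given beside these counts. Depth is unknown, so a missing peak does not show closed chromatin.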
